A study of Mus musculus with 60 samples.

Results

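Genes of the endoplasmic reticulum (ER) were followed in primary mouse hepatocytes stimulated with hepatocyte growth factor (HGF), interleukin 6 (IL-6), both or neither. The 47 genes were listed by name for their roles, and 46 of them were measured, of 14513 genes tested in all. They comprise 16 genes of protein folding, 7 of the degradation of misfolded proteins, 3 sensors of ER load or their target (Xbp1, Atf6 and Ern1), 16 of translocation and of the modification of entering chains, and 4 of transport between ER and Golgi. Sec61g, the smallest subunit of the translocation channel, had only a probe set that names other genes as well, and no value is given for it. The list names genes by role and not by a threshold on their values, but earlier results of these data were known when it was made. For a gene with several probe sets, as 30 of the 46 have, the values are those of the brightest one over all arrays.

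Hepatocytes came from male C57BL/6N mice aged 8 to 12 weeks, and the cells of 1 experiment came from 1 animal or were pooled from up to 3. They were plated on collagen in medium with serum, insulin and dexamethasone, allowed to attach, and then kept for 24 h in serum-free medium that still held 100 nM dexamethasone, so every group carries this glucocorticoid. Unstimulated cells formed the control arm, and the others were given HGF at 40 ng/ml, IL-6 at 40 ng/ml or both at these doses. RNA was taken before stimulation, on 4 arrays, and after 0.5, 2 and 4 h and 8, 16, 24 and 32 h, on 2 arrays per arm and hour, 60 arrays in all. The series text speaks of triplicates, but whether both arrays of a group stem from different animals is not in the labels, so that a p-value reflects the scatter among the arrays at hand, possibly a technical one.

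Secreted and membrane proteins enter the ER through the Sec61 channel, lose their signal peptide, receive sugar chains from the oligosaccharyltransferase and are folded by chaperones and disulphide isomerases. Chains that fail to fold are drawn back to the cytosol by the Hrd1 complex and degraded. Membrane sensors report a shortage of chaperones: IRE1 (Ern1) splices the messenger of the factor XBP1, ATF6 is cleaved and moves to the nucleus, and PERK slows translation, and together these branches form the unfolded protein response. Hepatocytes secrete most plasma proteins, and IL-6 is the main inducer of their acute phase proteins.

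A motif known from promoters of ER chaperones, the ER stress response element, CCAAT followed after 9 further bases by CCACG, is bound by ATF6 and XBP1 together with NF-Y, and it was first described in human chaperone genes. It was searched on both strands from 250 bases before to 50 after the annotated start of the 37 listed genes that had an entry in the RefSeq promoter table (GRCm38.p6). It was present in 9 of the 37 (24.3%), against 37 of all 27025 genes in that table (0.137%), tested here or not. By role it stood in 7 of 14 folding genes and 2 of 6 degradation genes, and in 0 of 12 translocation genes. A shorter form, ATTGG followed after 1 base by CCACG, stood in Dnajb11 and Herpud1 (0.0444% of all genes with a promoter). The XBP1 motif TGACGTGG stood in Kdelr3 and Sec24d (0.714% of all). The STAT motif TTCNNNGAA stood in 2 of 37 (5.41%), Sec23b and Sec61g, against 9.55% of all promoters. These matches are letters in a fixed window and not evidence of binding. The stretches around the matches are shown for some of the genes of folding, degradation and transport described in the following paragraphs. Those of Hsp90b1, Calr, Canx, Dnajb11, Dnajc3, Derl3 and Sec24d are not shown. The printed stretches are written 5′ to 3′ on the strand of the gene, with the motif in capitals. On the printed strand the motif reads in reverse complement in Creld2 and Kdelr3.
Hspa5, chr2:34772005-34772063, plus strand: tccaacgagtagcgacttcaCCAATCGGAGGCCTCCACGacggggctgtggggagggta
Creld2, chr15:88819500-88819558, plus strand: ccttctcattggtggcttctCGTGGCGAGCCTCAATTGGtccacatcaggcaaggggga
Pdia6, chr12:17266471-17266529, plus strand: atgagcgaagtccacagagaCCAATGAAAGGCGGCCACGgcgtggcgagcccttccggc
Syvn1, chr19:6046512-6046570, plus strand: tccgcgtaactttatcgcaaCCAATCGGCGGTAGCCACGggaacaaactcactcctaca
Herpud1, chr8:94386357-94386407, plus strand: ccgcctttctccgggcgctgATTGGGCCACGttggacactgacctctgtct
Kdelr3, chr15:79516358-79516405, plus strand: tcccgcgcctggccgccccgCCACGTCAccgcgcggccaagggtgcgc

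Levels are log2 intensities as deposited and differences are log2 differences of group means with the standard error (SE) of the limma fit. A gene passed when its moderated F-test over the compared hours had a Benjamini-Hochberg adjusted p below 0.05 over all 14513 genes, and its direction is that of the hour with the largest absolute difference. Comparisons with unstimulated cells were tested over 8 to 32 h. The reason is a labelling control: the 3′ minus 5′ signal of the spiked-in Dap transcript was 1.22 to 1.48 in unstimulated cells up to 4 h (10 arrays) and 2.62 to 3.24 elsewhere, apart from 3.72 on IL-6 24 h replicate 1. Differences from unstimulated cells at 0.5 to 4 h therefore cross this split. The first hour of a difference was read from IL-6 against HGF, which does not cross it. The hybridisation control bioB was also unequal, at 8.46 to 8.72 in unstimulated cells over 8 to 32 h. With IL-6 it was at most 7.46 over these hours, with HGF 7.36 and with both 6.51. Every tested comparison with unstimulated cells therefore crosses this difference in bioB. At 8 h it was 8.65 to 8.72 in unstimulated cells, 7.44 to 7.46 with IL-6, 6.53 to 6.76 with HGF and 6.23 to 6.51 with both. The folding genes had a median difference from unstimulated cells of 0.74 with IL-6, -0.0023 with HGF and 0.89 with both at 8 h. The part of bioB in these differences was not tested. Of the hepatocyte markers, albumin stood at 14.15 to 14.44 on all arrays and Apob at 12.05 to 13.04. The others varied more, with Ttr at 12.08 to 14.13, Apoa1 at 9.61 to 14.09 and Hnf4a at 9.06 to 11.16. Cps1 ranged from 6.81 to 12.20 and Tat from 5.82 to 8.99. Where a cell type contributes to bulk RNA, fewer of its cells and less RNA per cell cannot be told apart.

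IL-6 raised the folding genes as a group, most strongly at 8 h. All 16 passed with a higher level than in unstimulated cells, and 10 of them were at least 1.5-fold higher. Of the 46 genes 37 (80.4%) were higher, against 18.7% of all genes tested, and 4 (8.70%) lower, against 23.3%. At least 1.5-fold higher were 15 (32.6%), against 3.22% of all genes. The median difference of the 16 folding genes was 0.24 at 4 h, 0.74 at 8 h, 0.54 at 16 h, 0.39 at 24 h and 0.18 at 32 h, and that of all genes tested was -0.02 at 8 h. At 8 h alone 34 of the 46 were higher against 6.75% of all genes, and 1 was lower against 10.9%, while 14 were at least 1.5-fold higher against 1.31%.

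**Figure D1:**
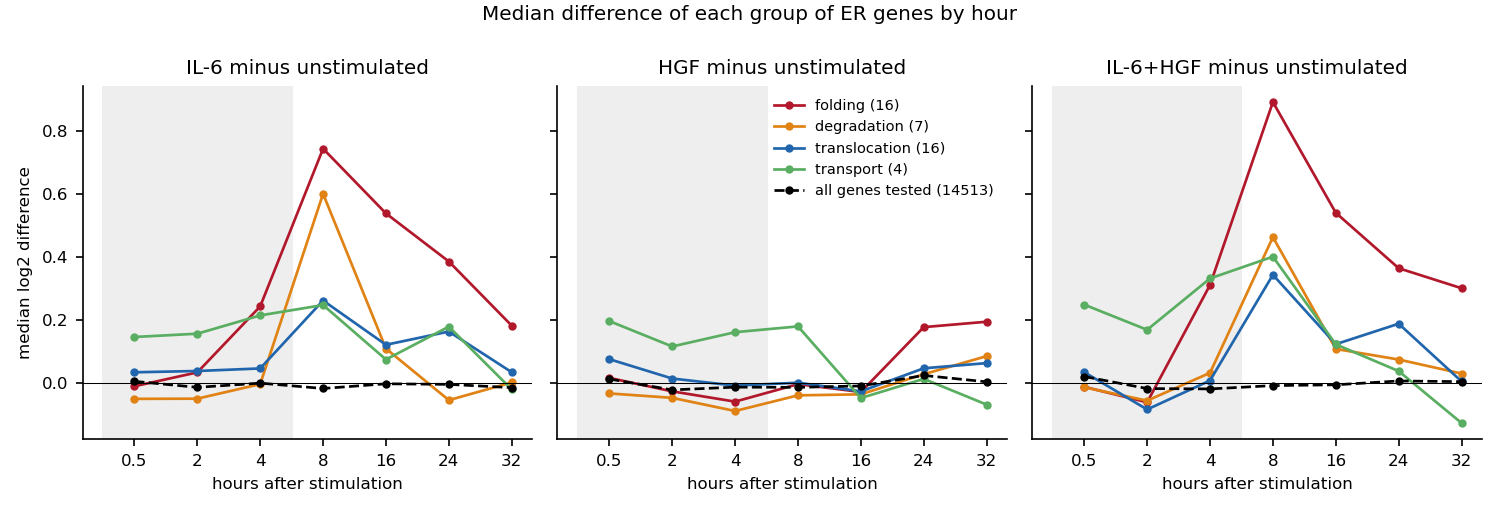
Median log2 difference from unstimulated cells of the same hour (vertical axis) against hours after stimulation (horizontal axis) for the folding, degradation, translocation and transport genes and for all 14513 genes tested, with 1 panel each for IL-6, HGF and both. The grey band marks the 0.5 to 4 h comparisons, which cross the labelling split; the folding median reaches 0.74 with IL-6 and 0.89 with both at 8 h, and is near 0 with HGF at that hour.

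Creld2, an ER protein induced and secreted under ER stress, had the largest rise. Its levels at 8 h were 9.30 and 9.25 in unstimulated cells, 9.50 and 9.51 with HGF, 10.92 and 11.08 with IL-6, and 11.49 and 11.51 with both. No array of 1 arm reached the range of another, and the order was unstimulated, HGF, IL-6 and both. The IL-6 difference was 1.72 ± 0.0962 (SE, 2 arrays per group), or 3.30-fold (adjusted p of the F-test = 1.76e-20). By 32 h the IL-6 arrays, at 9.54 and 9.50, were within 0.3 log2 units of the unstimulated arrays at 9.32 and 9.32.

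Sdf2l1, a partner of the Hspa5 chaperone system, stood at 8.98 and 9.07 in unstimulated cells and 8.96 and 8.97 with HGF at 8 h, against 10.45 and 10.60 with IL-6. The HGF arrays lay just below the unstimulated ones and the IL-6 arrays far above both, with a difference of 1.50 ± 0.0934 (2.83-fold, adjusted p = 7.62e-21). Manf, an ER protein that binds Hspa5 and is secreted under stress, showed 10.92 and 10.89 in unstimulated cells against 12.17 and 12.29 with IL-6, 1.33 ± 0.0643 higher (2.51-fold, adjusted p = 8.31e-23). The IL-6 arrays of both genes were clear of all unstimulated arrays at that hour.

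Hspa5 encodes BiP, the central Hsp70 chaperone of the ER lumen, which also holds the stress sensors inactive. It stood at 13.16 and 13.10 in unstimulated cells, 13.40 and 13.40 with HGF, 13.84 and 13.89 with IL-6 and 13.98 and 14.01 with both at 8 h. Each arm was separate from the next, and IL-6 was 0.73 ± 0.0372 higher than no stimulus (1.66-fold, adjusted p = 3.62e-23). At 32 h the IL-6 arrays, at 13.72 and 13.73, overlapped the unstimulated arrays at 13.73 and 13.74. Hsp90b1 (GRP94, the Hsp90 of the ER) peaked at 0.84 and Hyou1, a nucleotide exchange factor for BiP, at 0.94, both at 8 h. The lectin chaperones for glycoproteins moved less: Calr rose from 12.19 and 12.15 to 12.55 and 12.67, and Canx from 12.29 and 12.33 to 12.47 and 12.48.

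The disulphide isomerases differed among themselves. Pdia4 showed 8.92 and 9.04 in unstimulated cells and 9.98 and 10.04 with IL-6 at 8 h, a difference of 1.04 ± 0.0887 (2.05-fold, adjusted p = 5.7e-17). Pdia6 differed most at 16 h, with 11.21 and 11.17 in unstimulated cells and 12.00 and 12.31 with IL-6. That difference was 0.96 ± 0.0689 (1.95-fold, adjusted p = 4.3e-22). Its IL-6 arrays at 8 h were 12.00 and 12.03, and only replicate 2 of 16 h lay above both. Whether Pdia6 peaked later than Pdia4 was not tested. The arrays of both genes were clear of the unstimulated ones. With all probe sets of a gene averaged in place of the brightest, the differences were smaller by over 1.5 times in several genes, at 0.57 for Pdia4, 0.48 for Pdia6 and 0.61 for Hyou1, and each still passed.

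**Figure D2:**
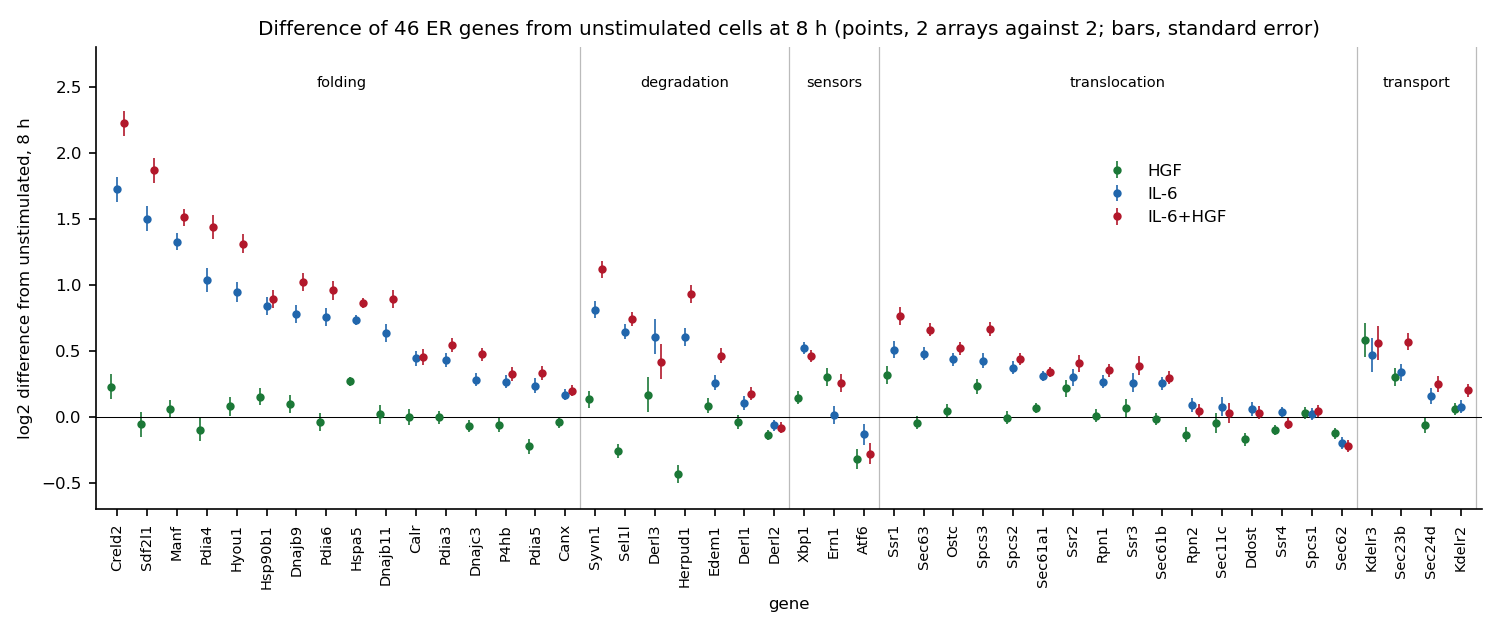
Log2 difference from unstimulated cells at 8 h (vertical axis, bars are the SE of the fit with 2 arrays per group) for each of the 46 genes (horizontal axis), grouped by role, with IL-6, HGF and both in separate colours. The folding genes lie above 0 with IL-6 and with both, led by Creld2 at 1.72 and 2.22, while the highest HGF value is 0.58, of Kdelr3.

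Among the 7 degradation genes IL-6 raised 5. Derl1, another Derlin, passed with its largest difference at 32 h, -0.16 (adjusted p at 32 h = 0.167 without IL-6 32 h replicate 2), and Derl2 did not pass. Syvn1, the ubiquitin ligase Hrd1, stood at 8.96 and 8.90 in unstimulated cells and 9.68 and 9.80 with IL-6 at 8 h, 0.81 ± 0.0635 higher (1.76-fold, adjusted p = 7.23e-14). Its arrays did not overlap between these arms. Its partner Sel1l, which delivers substrates to the ligase, was 0.65 higher on its brightest probe set at 8 h, but the other probe sets gave 0.12 to 0.26. Derl3, also a Derlin of the retrotranslocation complex, was 0.61 higher at 8 h (adjusted p = 0.000958). Without unstimulated 8 h replicate 1 that difference was 0.44 and its adjusted p at 8 h was 0.0547. The median of the degradation genes was 0.60 at 8 h, 0.11 at 16 h and -0.05 at 24 h, where the folding genes had 0.54 and 0.39 at the latter hours. A difference in duration between the groups was not tested.

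Herpud1, a scaffold of the Hrd1 complex, moved in both directions within the IL-6 course. At 2 h it stood at 10.20 and 10.23 with HGF, 9.85 and 9.88 with IL-6 and 9.70 and 9.69 with both, against 10.95 and 10.87 in unstimulated cells. At 8 h the IL-6 arrays had risen to 11.29 and 11.53 and the arrays with both to 11.75 and 11.73, above the unstimulated 10.83 and 10.79, while HGF stayed below at 10.35 and 10.40. At 24 h all stimulated arms were below the unstimulated 11.01 and 11.01, at 10.46 and 10.60 with IL-6 and 10.23 and 10.32 with HGF. In numbers, IL-6 minus unstimulated was -1.04 at 2 h, 0.60 at 8 h and -0.48 at 24 h, and HGF minus unstimulated was -0.69, -0.43 and -0.73 at these hours. The 2 h values cross the labelling split. A second Herpud1 probe set gave 0.53 for IL-6 at 8 h and -0.43 for HGF at 8 h. Edem1, a lectin that hands glycoproteins to degradation, was 0.26 higher with IL-6 at 8 h on its brightest probe set and 0.75 higher on the second.

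Of the sensor genes Xbp1 alone was higher with IL-6 than with HGF at any hour, from 2 h on. Its level at 2 h was 12.88 and 12.77 with IL-6 and 12.91 and 12.86 with both, against 12.39 and 12.46 with HGF and 12.11 and 12.14 in unstimulated cells. Both arms with IL-6 were above all arrays without it, and IL-6 exceeded HGF by 0.40 (adjusted p at 2 h = 1.78e-08). At 8 h IL-6 was 0.52 ± 0.0474 above unstimulated cells (adjusted p of the F-test = 4.3e-16), and at 32 h 0.10. The arrays report total Xbp1 messenger, and spliced and unspliced forms were not distinguished. Atf6 did not pass (largest difference 0.15, adjusted p = 0.241). Ern1 passed with 0.26 at 16 h (adjusted p = 0.027), where its IL-6 arrays were 9.59 and 9.26 and the unstimulated arrays 9.18 and 9.14. Without IL-6 16 h replicate 1 the difference was 0.10 (adjusted p at 16 h = 0.417).

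Translocation and modification genes rose less and less uniformly. With IL-6 11 of 16 were higher and 2 lower, and 1 was at least 1.5-fold higher. The group median was 0.26 at 8 h and 0.12 at 16 h. The exception was Sec63, which recruits BiP to the channel: its IL-6 levels of 10.46 and 10.48 at 8 h stood above 9.95 and 10.03 in unstimulated cells, and at 32 h they were 10.89 and 10.77 against 9.83 and 9.80. The difference at 32 h was 1.02 ± 0.0485 (2.02-fold, adjusted p = 2.18e-27), when the folding genes had a median of 0.18, and its 4 other probe sets gave 0.95 to 1.09. Sec63 had the largest difference of all 46 genes at 32 h.

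Sec61a1, the pore subunit, rose from 11.89 and 11.92 to 12.20 and 12.23 at 8 h. Ssr1, of the TRAP complex beside the channel, was 0.51 higher at 8 h on its brightest probe set and 0.30 higher with the probe sets averaged. Among the subunits of the oligosaccharyltransferase Ddost and Rpn2 did not pass, and neither did Ssr4. The Ddost arrays at 8 h were 10.36 and 10.36 in unstimulated cells and 10.44 and 10.40 with IL-6. Sec62, the partner of Sec63 at the channel, moved the opposite way, with 11.11 and 11.14 in unstimulated cells and 10.96 and 10.91 with IL-6 at 8 h. Spcs1, a signal peptidase subunit, was also lower, at 11.38 and 11.32 against 11.65 and 11.67 at 32 h (difference -0.31).

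Of the transport genes IL-6 raised Sec23b, a coat protein of vesicles leaving the ER, and both receptors that return escaped ER proteins, Kdelr2 and Kdelr3, and lowered Sec24d, another coat protein, with at most -0.21 at 32 h (adjusted p at 32 h = 0.0783 without IL-6 32 h replicate 2). The Kdelr3 arrays at 8 h were 5.60 and 5.84 in unstimulated cells and 6.10 and 6.28 with IL-6, a difference of 0.47 whose adjusted p at 8 h was 0.161 without unstimulated 8 h replicate 1 and 0.134 without IL-6 8 h replicate 2.

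**Figure D3:**
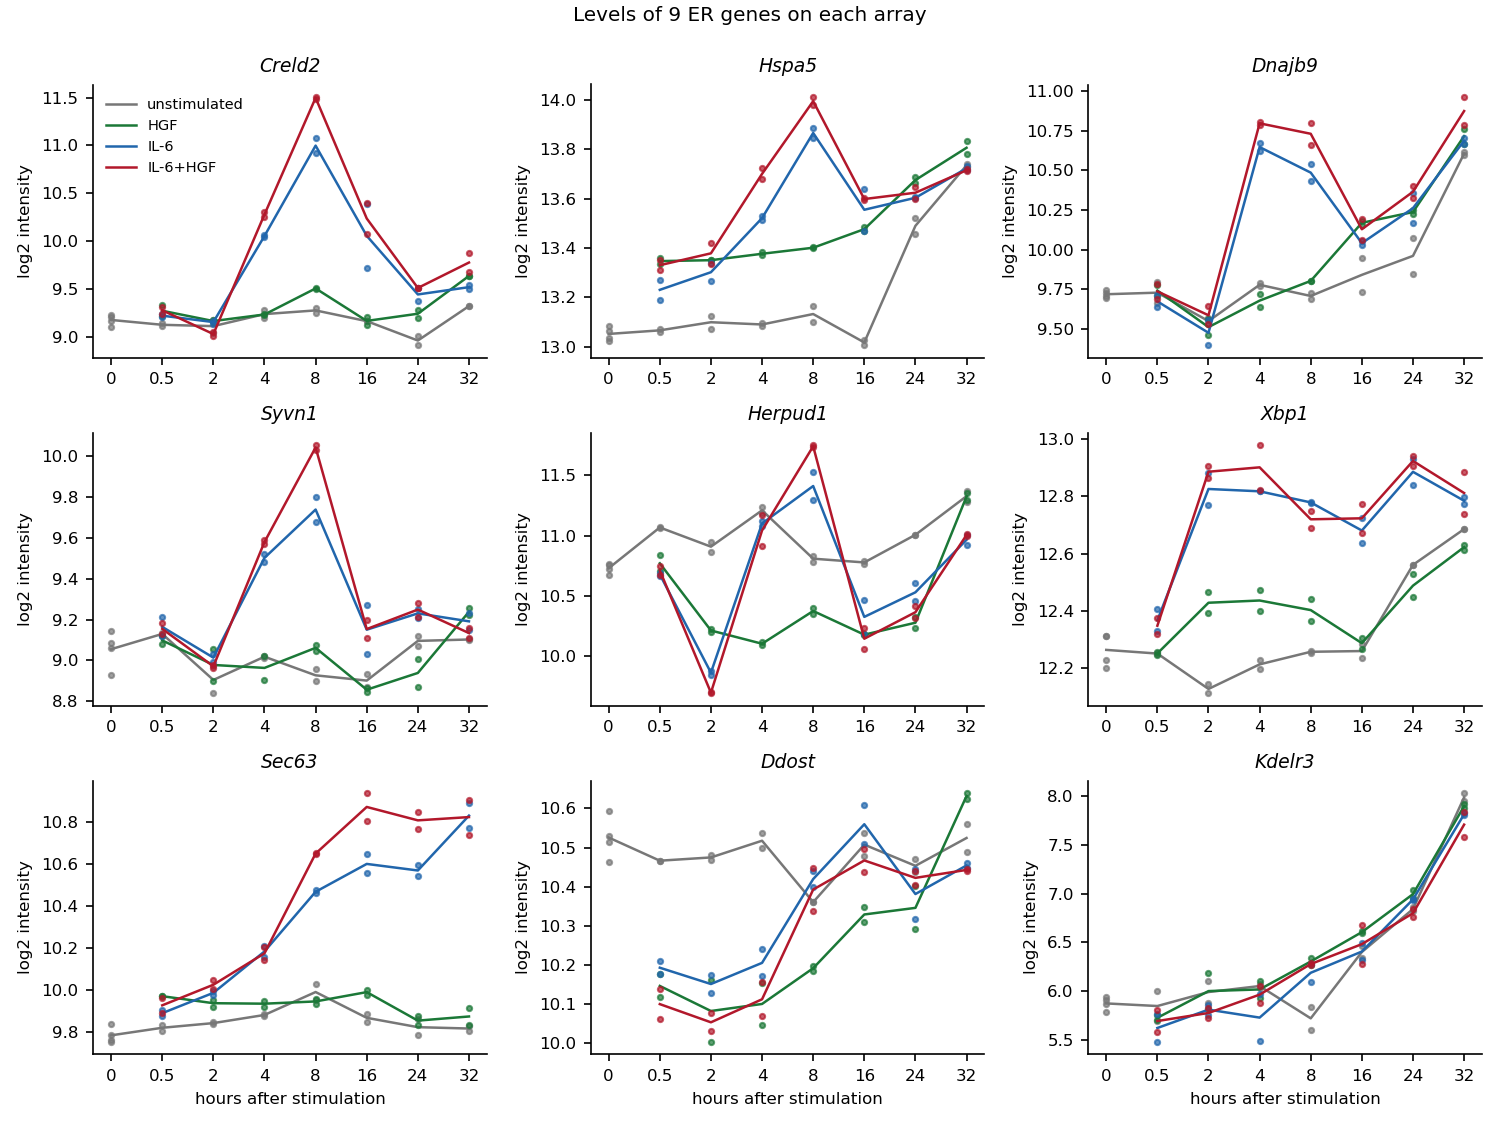
Log2 intensity (vertical axis) against hours (horizontal axis) for 9 genes, with points for single arrays and lines through the means of the 4 arms. Creld2, Hspa5 and Syvn1 separate at 8 h, Sec63 is still apart at 32 h, Herpud1 dips before it rises, and Kdelr3 rises in all arms late in culture.

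IL-6 and HGF were compared directly at matched hours, where both arms share the labelling class given by Dap. Their bioB levels were not equal, at 7.45 to 7.59 with IL-6 and 6.69 to 8.79 with HGF over 0.5 to 4 h. The part of bioB in this comparison was not tested. Of the 46 genes 34 (73.9%) were higher with IL-6, against 22.3% of all genes, and 9 (19.6%) lower, against 28.9%. By at least 1.5-fold 14 were higher and 1 lower (32.6%, against 10.1% of all genes in either direction). All 16 folding genes were higher with IL-6. The first hour at which a gene was higher with IL-6 than with HGF was 2 h for Sdf2l1, Xbp1 and Ostc, a subunit of the oligosaccharyltransferase. For 18 genes it was 4 h, and these were 12 folding genes, Herpud1, Edem1, Sel1l, Syvn1, Sec63 and Spcs2. It was 8 h for 15 genes and 16 h for 2, and 8 genes were at no hour higher. Such a first hour can come from a lower level with HGF as well as from a higher one with IL-6. From 0.5 to 2 h the Sdf2l1 mean went from 8.80 to 8.73 with IL-6 and from 8.77 to 8.44 with HGF. Its gap at 2 h thus came without a rise in the IL-6 arm. The Ostc mean went from 10.23 to 10.36 with IL-6 and from 10.28 to 10.19 with HGF. The share of all genes that was higher with IL-6 was 2.69% at 2 h and 8.88% at 8 h. At 4 h alone 21 of the 46 were higher, against 4.83% of all genes, and 5 were at least 1.5-fold higher, against 1.07%.

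Dnajb9 (ERdj4), a BiP cochaperone and a target of XBP1, was among those that separated early. At 4 h its levels were 9.64 and 9.72 with HGF, 10.62 and 10.67 with IL-6 and 10.81 and 10.79 with both. The arms with IL-6 were clear of HGF, by 0.97 for IL-6 (adjusted p at 4 h = 1.36e-15). Hspa5 differed by 0.14 at that hour (adjusted p = 0.00466) and by 0.46 at 8 h. Herpud1 was 1.00 higher with IL-6 than with HGF at 4 h (adjusted p = 5.24e-16), where its arrays were 11.08 and 11.12 against 10.09 and 10.12. Ern1 was the one gene at least 1.5-fold lower with IL-6, by -0.69 ± 0.0691 at 16 h (adjusted p of the F-test = 8.02e-15). Its arrays at that hour were 9.59 and 9.26 with IL-6 and 10.04 and 10.19 with HGF. The Ern1 value rests on the brightest of several probe sets.

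HGF alone moved many of these genes, but by small steps. It raised 24 (52.2%), against 27.2% of all genes, and lowered 12 (26.1%), against 27.9%. By at least 1.5-fold 1 was higher and 1 lower (4.35%, against 11.9% of all genes). In either direction 36 passed, against 55.1% of all genes. HGF also lowered 5 of 7 hepatocyte markers, 3 of them by at least 1.5-fold, and 4 of 5 endothelial markers, and raised 3 of 4 cholangiocyte markers. The part of these cell type markers in the HGF differences was not tested. With each array centred on its median the split was 34 higher and 5 lower. Of the 24 raised genes 10 differed most at 32 h and 4 at 8 h, whereas 23 of the 37 genes raised by IL-6 differed most at 8 h. At 8 h alone HGF raised 8 and lowered 7, against 14.1% and 15.3% of all genes.

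Ern1 was the gene that HGF raised most. At 16 h its arrays were 9.18 and 9.14 in unstimulated cells, 10.04 and 10.19 with HGF, 9.59 and 9.26 with IL-6, and 9.91 and 9.82 with both. HGF was above every array of the other arms, 0.95 ± 0.0691 over unstimulated cells (1.93-fold, adjusted p = 5.99e-15). That value rests on the brightest of 5 probe sets, and the mean over the probe sets gave 0.20. Herpud1 was the gene that HGF lowered most, by -0.73 ± 0.0681 at 24 h (adjusted p = 1.08e-15).

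For Hspa5 the HGF difference was largest at 16 h, with 13.01 and 13.03 in unstimulated cells and 13.48 and 13.47 with HGF. It was 0.46 ± 0.0372 there (1.37-fold, adjusted p = 1.12e-15). At that hour IL-6 gave 13.47 and 13.64, so the HGF and IL-6 arrays overlapped. The HGF arrays already lay higher at 8 h, at 13.40 and 13.40 against 13.16 and 13.10 without stimulus. At 0.5 h, across the labelling split, they were 13.34 and 13.36 against 13.06 and 13.07. Atf6 was 0.42 higher with HGF at 16 h (adjusted p = 2.86e-06) and Kdelr3 0.58 higher at 8 h (adjusted p = 0.00114). Spcs3, the glycosylated signal peptidase subunit, was 0.49 ± 0.0545 higher at 32 h (adjusted p = 1.83e-13). Sec24d fell by 0.44 at 16 h (adjusted p = 9.41e-09).

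With both stimuli 36 of the 46 genes (78.3%) were higher than in unstimulated cells, against 28.5% of all genes, and 5 (10.9%) lower, against 28.7%. At least 1.5-fold higher were 18, against 6.33% of all genes. At 8 h alone 38 were higher against 13.7% of all genes, and 16 at least 1.5-fold higher against 2.41%. All 16 folding genes were again higher, 11 of them by at least 1.5-fold. Creld2 was 2.22 ± 0.0962 higher at 8 h (4.66-fold, adjusted p = 6.31e-25), Sdf2l1 1.87, Manf 1.51, Pdia4 1.44 and Hyou1 1.31. Hspa5 was 0.86 ± 0.0372 higher (1.82-fold, adjusted p = 8.23e-26), Syvn1 1.12 ± 0.0635 (adjusted p = 1.24e-18) and, at 32 h, Sec63 1.01 ± 0.0485 (adjusted p = 4.4e-31). Against HGF alone both stimuli gave 36 higher, against 17.7% of all genes, and 6 lower, against 23.9%, with 15 at least 1.5-fold higher against 3.78%. These comparisons share arrays with those of IL-6, so their values are given side by side only.

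Adding HGF to IL-6 raised 24 genes (52.2%) relative to IL-6 alone, against 23.2% of all genes, and lowered 8 (17.4%), against 20.9%, and 0 reached 1.5-fold against 5.60% of all genes. At 8 h alone 18 were higher, against 5.72% of all genes, and 0 lower, against 7.63%, and 10 of these 18 were folding genes. Creld2 was 0.50 higher at 8 h (adjusted p = 0.000165), Pdia4 0.40, Hyou1 0.37, Sdf2l1 0.37, Herpud1 0.33 and Syvn1 0.30. For Sdf2l1 the adjusted p at 8 h was 0.130 without IL-6 8 h replicate 1 and 0.0957 without replicate 1 of both stimuli. Without IL-6 16 h replicate 1, 1 gene reached 1.5-fold.

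The interaction, the difference of the combination from the sum of the single effects, passed for 14 genes (30.4%, against 19.7% of all genes). Above the sum were 9, against 11.4% of all genes, and below it 5, against 8.28%, and 1 was at least 1.5-fold off, against 4.62%. Centring each array on its median changed the split to 5 above and 15 below, so the balance of directions depends on the scaling. Herpud1 was the furthest above, by 0.76 ± 0.0962 at 8 h (adjusted p = 1.13e-09): IL-6 alone raised it by 0.60, HGF alone lowered it by 0.43, and both together raised it by 0.93. Hspa5 was below the sum at 16 h, by -0.42 ± 0.0527 (adjusted p = 1.14e-07), with arrays of 13.48 and 13.47 for HGF, 13.47 and 13.64 for IL-6 and 13.60 and 13.60 for both. Creld2, the gene with the largest rise, did not pass (0.27, adjusted p = 0.259), so a departure from the sum was not detected for it. Pdia4 at 16 h gave 0.52, and 0.27 without IL-6 16 h replicate 1, where its adjusted p at that hour was 0.166.

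Promoter motifs were set beside the 8 h differences for the 36 measured genes with a promoter entry. The 11 genes with either form of the ER stress response element had a median IL-6 difference of 0.63, from 0.17 to 1.72, and the 25 with neither had 0.27. With HGF the medians were 0.02 and -0.02, and with both stimuli 0.89 and 0.39. Within the folding genes the medians for IL-6 were 0.68 in 8 genes with the motif and 0.60 in 6 without, which is a smaller contrast than over all roles. For IL-6 minus HGF the medians over all roles were 0.62 with the motif and 0.23 without. Within the folding genes that comparison gave 0.54 with the motif and 0.57 without. The upstream stretches of Hspa5, Creld2, Pdia6 and Syvn1 shown earlier belong to the first class.

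Unstimulated cells changed over the same period. Within 0.5 to 4 h of the start 4 of the 46 genes differed from 0 h. Herpud1 was 0.48 higher at 4 h (adjusted p = 6.34e-08; 10.8% of all genes were higher), and Ern1 (-0.28), Dnajb9 (-0.17) and Syvn1 (-0.15) were lower (9.57% of all genes). With any 1 array left out 2 to 3 genes differed. For Syvn1 the adjusted p at its own hour, 2 h, was 0.0636, and its arrays overlapped those of 0 h. Against 8 h, over 16, 24 and 32 h together, 13 rose (28.3%, against 36.1% of all genes) and 28 fell (60.9%, against 29.5%), and 6 rose and 4 fell by at least 1.5-fold (21.7%, against 24.0% of all genes). Of the 16 folding genes 12 fell and 3 rose, and of the 16 translocation genes 11 fell and 2 rose, whereas all 3 sensors rose. A fall here refers to the hour of the largest difference, and 4 of the 28 were not below their 8 h level at 32 h: Hyou1 (0.0038), Dnajc3 (0.0340), Creld2 (0.0450) and Sec23b (0.0184). The folding median was -0.23 at 24 h and -0.08 at 32 h, and the translocation median -0.19 and -0.21. With probe sets averaged, Sec63 and Derl2, counted among the falls, gave 0.23 and 0.37 at their hours, and Canx, counted among the rises, gave -0.0009.

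Kdelr3 had the largest change in culture, from 5.60 and 5.84 at 8 h to 7.94 and 8.03 at 32 h, a rise of 2.27 ± 0.1283 (4.81-fold, adjusted p = 3.31e-19). At 32 h the arms were close, with 7.88 and 7.91 for HGF, 7.80 and 7.82 for IL-6 and 7.83 and 7.58 for both. Atf6 rose by 1.22 ± 0.0775 (2.33-fold, adjusted p = 1.33e-19), from 8.83 and 8.89 to 10.11 and 10.04, and its other probe sets gave 0.60 and 0.97. Sel1l rose by 1.28 on its brightest probe set, but its other probe sets gave 0.03, 0.76, 0.01 and 0.08.

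Hspa5 rose by 0.60 ± 0.0372 by 32 h (adjusted p = 5.63e-22) and Dnajb9 by 0.90, while Calr fell by 0.49 and Rpn1, an oligosaccharyltransferase subunit, fell by 0.56. Sec24d fell by 0.99, from 10.19 and 10.18 to 9.19 and 9.20. Ern1 rose by 0.83 at 24 h, but its mean over probe sets rose by 0.04, and Edem1 fell by 0.64 on its brightest probe set and rose by 0.42 on the second. Over the same hours 10 of 10 genes of the PERK and ATF4 branch rose. Among all genes tested 36.1% rose and 29.5% fell in this comparison, and 24.0% moved by at least 1.5-fold in either direction. Of the cell type markers, 6 of 7 hepatocyte genes fell, 5 of them by at least 1.5-fold, with a summed level of 15.94 to 15.95 at 8 h and a lowest value of 15.19 over 8 to 32 h. Of macrophage markers 3 of 5 fell and 1 rose, and of cholangiocyte markers 2 of 4 rose and 1 fell, each by at least 1.5-fold. The part of these changes in those of the ER genes was not tested.

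**Figure D4:**
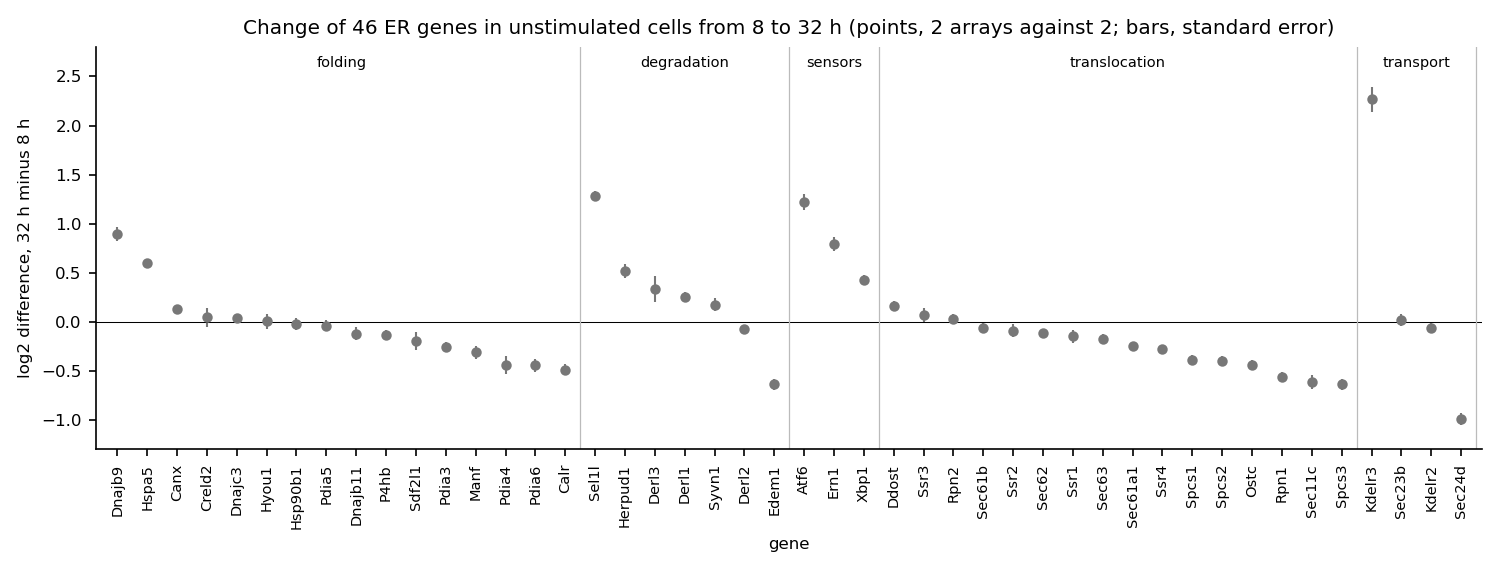
Log2 difference between unstimulated cells at 32 h and at 8 h (vertical axis, bars are the SE of the fit, 2 arrays per group) for the 46 genes (horizontal axis), grouped by role. Kdelr3 at 2.27, Sel1l at 1.28 and Atf6 at 1.22 are the highest and Sec24d at -0.99 the lowest, and most folding and translocation genes lie below 0.

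Related genes that were not among the 47 were read from lists by role. With IL-6, 10 of 19 other ER folding genes were higher and 5 lower, led by the oxidase Ero1b (0.65, adjusted p = 2.98e-09), the glycoprotein folding checkpoint Uggt1 (0.49) and Txndc11 (0.47). Of 16 other genes of ER entry and glycosylation 8 were higher and 0 lower, led by Magt1, an oxidoreductase subunit of the oligosaccharyltransferase (0.56, adjusted p = 4.73e-11). Of 13 other degradation genes 4 were higher and 5 lower, with Selenos at 0.54 and Edem2 at -0.25. Of 18 other transport genes 3 were higher and 2 lower, with the cargo receptor Surf4 at 0.61 and the coat GTPase Sar1b at -0.55. Of all genes 42.0% passed this comparison.

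Some markers of cell types also differed with IL-6. Of 7 hepatocyte markers 1 was higher and 6 lower, with Cps1 at -0.98. Among all genes 18.7% were higher and 23.3% lower. Of markers kept for other cells, 1 of 5 macrophage genes was lower (Cd68, -0.78), 1 of 5 endothelial genes was higher (Lyve1, 0.75), 0 of 4 stellate genes passed, and 1 of 4 cholangiocyte genes was higher and 1 lower. The summed level at 8 h was 8.90 to 8.99 with IL-6 and 9.10 to 9.16 in unstimulated cells for macrophage genes, 8.29 to 8.48 and 8.39 to 8.47 for endothelial genes, and 7.96 to 8.03 and 8.06 to 8.09 for stellate genes. Lymphoid and plasma cell genes, of which plasma cells are rich in ER, summed to 7.24 to 7.41 with IL-6 and 7.08 to 7.13 in unstimulated cells. Within that list of 5, Jchain at 2.52 to 3.23 and Ptprc at 2.70 to 3.78 stayed below every array median, Cd79a at 4.26 to 5.20 and Cd3e at 4.92 to 5.59 lay around the medians, and the plasma cell gene Mzb1, an ER cochaperone, at 5.58 to 6.38 lay above them all. With IL-6 0 of the 3 kept for testing passed, and Mzb1 differed by 0.29 at 8 h (adjusted p = 0.307). The part of these markers in the ER differences was not tested.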

How the data were processed

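The authors deposited log2 intensities for 45101 probe sets of 60 Affymetrix Mouse430_2 arrays, with biotin labelling by the One-Cycle assay per the labels' protocols. Summarisation and scaling are not given in the sources used here. The medians of the arrays were 4.88 to 4.97, so the deposited log2 values were used as they stand. The number of arrays limits the precision of each value. Of the probe sets 34958 name 1 gene, 932 several and 9211 none, per the platform annotation, and only the first kind was used. Each of 18194 genes took its probe set with the highest mean, and 14513 above the 40th percentile of an array on at least 2 arrays were kept, all 46 measured genes among them. Promoters came from RefSeq (GRCm38.p6).

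The fit had 1 mean for each of 29 groups and used R 4.3.3 and its package limma 3.58.1, with a trend in eBayes. Comparisons between stimulated arms used all 7 later hours, those with unstimulated cells and the interaction 8 to 32 h. P-values at single hours were adjusted over genes within the hour. Two-sided moderated tests were used. The code was tested on simulated data. A 1.5-fold minimum refers to a passed gene at a tested hour. Within groups arrays correlated at 0.996 to 0.998, and 0 of 1770 pairs were identical. Replicate numbers did not pair arrays (residual correlations -0.269 to 0.252 over 378 pairs of groups), so no block was used.

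The 47 genes, the other lists and the tests were chosen with earlier results of these data known. Named for each comparison were the 6 genes with the largest difference, 2 per role with the smallest adjusted p, and Hspa5, Xbp1, Atf6 and Ern1, and of other lists the 3 genes with the largest IL-6 difference. Other members were named to describe a role. Alternatives were quantile normalization, array centring (chosen after seeing the data), other filters, the mean over probe sets, variance models without trend or robust, fits on the compared arms, other hours, a replicate block, and leaving out each array.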

Additional observations from a re-analysis of the deposited data

Results flagged for a closer look

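Among the 4 unstimulated arrays at 0 h, 3 of 46 genes had 1 array far from the rest, where chance gives about 1 in 20 groups. Derl3 was 6.64 on replicate 2 against 6.34 to 6.37 on the others, Atf6 8.51 on replicate 4 against 8.78 to 8.81, and Spcs3 9.80 on replicate 2 against 9.73 to 9.74.

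The effect of IL-6 differed with and without HGF in 14 genes by the interaction test (F-test over 8 to 32 h, limma). The combination exceeded the sum of the single effects for Herpud1 (0.76 at 8 h), Pdia4 (0.52 at 16 h), Sdf2l1 (0.42 at 8 h), Sel1l (0.36 at 8 h), Pdia5 (0.32 at 8 h), Rpn2 (0.28 at 24 h), Dnajc3 (0.26 at 8 h), Sec63 (0.23 at 8 h) and Derl2 (0.13 at 24 h). It was below the sum for Ern1 (-0.51 at 16 h), Pdia6 (-0.46 at 32 h), Hspa5 (-0.42 at 16 h), Atf6 (-0.34 at 16 h) and Dnajb11 (-0.30 at 24 h). With probe sets averaged, Pdia4, Pdia6, Sel1l and Ern1 gave 0.16, -0.18, 0.23 and -0.07 at the same hours, none past the threshold there. At the single hours named, the adjusted p was 0.0781 for Sdf2l1, 0.0641 for Sec63 and 0.148 for Derl2, so their calls rest on the F-test over the hours. Leaving out 1 array moved the adjusted p at that hour to as much as 0.421 for Atf6, 0.339 for Dnajb11, 0.116 for Dnajc3, 0.150 for Pdia5, 0.186 for Rpn2 and 0.166 for Pdia4.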

How the results depend on the processing

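Counts of passed genes stayed within 1.5 times under the settings tried, except as follows. The HGF count at 1.5-fold was 1 in place of 2 with probe sets averaged. The interaction count was 26 over all 7 hours in place of 14, 20 (5 above, 15 below) with centring and 15 (8 and 7) with quantile normalization; HGF with centring was 39 (34 higher, 5 lower). Unstimulated 0.5 to 4 h against 0 h gave 4 genes, 2 without trend, 9 on the unstimulated arm alone, 42 over 7 later hours (9 at 1.5-fold), and 2 to 3 with any 1 array left out (2 without either array of 0.5 h or of 4 h, or 2 h replicate 1). The count over 7 later hours crosses the labelling split, since its arrays of 8 to 32 h are set against 0 h. Leaving out 1 array gave 1 to 4 genes for the interaction at 1.5-fold (main 1; 4 without IL-6 16 h replicate 2, 2 without HGF 16 h replicate 1 or unstimulated 16 h replicate 2), 0 to 1 for both against IL-6, and 40 to 42 for IL-6. The replicate block gave 36, 41 and 41 genes for HGF, IL-6 and both, 15 for the interaction and 3 for 0.5 to 4 h, and numbers do not pair arrays. The causes were not tested.

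Averaging probe sets reversed 9 single differences: IL-6 minus HGF at 24 h for Derl1 (0.0397) and Derl2 (0.0068), both minus IL-6 for Dnajc3 (-0.0031) and Ssr4 (0.0049), and in culture Derl1 (0.0280), Canx (-0.0009), Derl2 (0.3737), Sec62 (0.2175) and Sec63 (0.2313). Centring shifts differences by -0.14 to 0.03. Signals near background limit dim genes such as Kdelr3 and Derl3.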

Other observations

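A pair of neighbouring stress programmes was read beside the ER genes. Of 10 genes of the PERK and ATF4 branch, HGF raised 9 and lowered 1, led by the transcription factor Ddit3 (1.63 at 16 h, adjusted p = 1.04e-12) and Trib3 (1.25). Eif2ak3, which encodes PERK itself, was the one lowered (-0.78). The median HGF difference of the 10 genes was 0.10 at 8 h, 1.04 at 16 h, 0.01 at 24 h and -0.01 at 32 h. IL-6 raised 6 and lowered 3, with Ddit3 at 0.81, Trib3 at 0.65 and Eif2ak3 at -0.60. The background was 55.1% of all genes passing for HGF and 42.0% for IL-6. The interaction passed for 9 of the 10, 1 above and 8 below the sum, against 11.4% and 8.28% of all genes. Ddit3 was at -0.93 at 16 h (adjusted p = 0.00252). At single hours 8 of the 10 were below the sum at 16 h, 0 at 8 h, 0 at 24 h and 1 at 32 h.

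Of 11 cytosolic and mitochondrial chaperones, IL-6 raised 2 and lowered 8, against 18.7% and 23.3% of all genes. Among those lowered were the inducible Hsp70 genes Hspa1b (-0.62, adjusted p = 4.34e-12) and Hspa1a (-0.46) and their cochaperone Dnajb1 (-0.33). HGF raised 5 and lowered 5, against 27.2% and 27.9% of all genes. Hspa1a and Hspa1b are near-identical copies, and their probe sets may share signal.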
